A study of Sus scrofa domesticus with 11 samples.

Results

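CLGN, which encodes the chaperone calmegin, is described here together with 9 genes of protein folding and stress signalling in the endoplasmic reticulum (ER): CANX, CALR, HSPA5, HSP90B1, PDIA4, XBP1, ATF4, DDIT3 and HERPUD1. The 10 genes were taken by name from the 22029 genes of the deposited table, whose name column gives each of them to 1 identifier. All 10 were among the 13671 genes with enough reads to be tested. CLGN was chosen by its difference in counts between the groups, called in earlier results of these data, and the other 9 for the same cell biology. The difference between the groups is therefore a description for CLGN, and none of its p-values supports it. The libraries came from the livers, at day of life 15, of Yorkshire piglets that were born preterm and fed by vein (parenteral nutrition). In one group 5 piglets received SEFA-6179, a compound known by its code name, at 48 mg/kg. In the other group 6 piglets received MCT, the vehicle control, an oil of medium-chain triglyceride going by what is known of the study, at 3 ml/kg. The sources used here name no sex or litter, and each library was taken as 1 animal.

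Secreted and membrane proteins fold inside the ER, and hepatocytes, which export most plasma proteins, carry a heavy load of this work. Calnexin and calreticulin hold newly made glycoproteins by their trimmed sugar chains, and calmegin is a close relative of calnexin best known from the testis, where it is needed to make fertile sperm. BiP and GRP94 bind unfolded chains directly. When unfolded protein accumulates, the sensors IRE1, PERK and ATF6 start the unfolded protein response: IRE1 splices XBP1 mRNA, PERK favours translation of ATF4, and ATF6 moves to the nucleus, and together these raise chaperones, degradation factors and, under lasting stress, DDIT3. Gene-level read counts show neither the splicing of XBP1 nor the translation of ATF4.

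Library totals lay between 16821201 and 19215097 counts in the SEFA-6179 group and between 15974977 and 23416071 counts in the MCT group. The tissue label was met by all 8 hepatocyte markers, whose summed level lay between 72230 and 191500 CPM (reads on a gene scaled by the TMM-corrected depth of its library). SEFA-6179 replicate 3 stood apart for the ER genes below, and both it and MCT replicate 5 for cytosolic heat shock genes. The values that move most without either library are given beside those with all libraries. In bulk liver, fewer cells of a type and less RNA per cell cannot be told apart. Nothing in the labels says that same-numbered libraries of the groups are related.

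CLGN gave only a few reads in SEFA-6179 livers and more, though still few, in MCT livers. The SEFA-6179 libraries had 3, 7, 8, 4 and 7 reads on CLGN in replicates 1 to 5, 29 in all (exact Poisson 95% interval 19.4 to 41.7, counting error only). The MCT libraries had 10, 45, 51, 61, 51 and 50 reads in replicates 1 to 6, 268 in all (236.9 to 302.1). MCT replicate 1 thus lay close to the SEFA-6179 libraries, and the other 5 MCT libraries well above them. As levels, the SEFA-6179 libraries averaged 0.332 ± 0.119 CPM (SD, n = 5), which was 6.86-fold lower than the MCT libraries at 2.27 ± 0.947 CPM (SD, n = 6). The highest SEFA-6179 library was at 0.431 CPM and the lowest MCT library at 0.496 CPM, so the groups did not overlap, by a narrow gap. Over all tested genes 0.819% had every SEFA-6179 library below every MCT library, and 0.219% were called in either direction by the edgeR quasi-likelihood test at a Benjamini-Hochberg adjusted p of 0.05. CLGN is in both shares by choice. DESeq2 called 1.6% of the genes it tested, and 1.16% passed in the authors' deposited table. The deposited table places CLGN (ENSSSCG00000026360) on chromosome 8 from 86621178 to 86675796 on the plus strand, with no other listed gene overlapping it. No genome build is named in the sources used here.

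**Figure D1:**
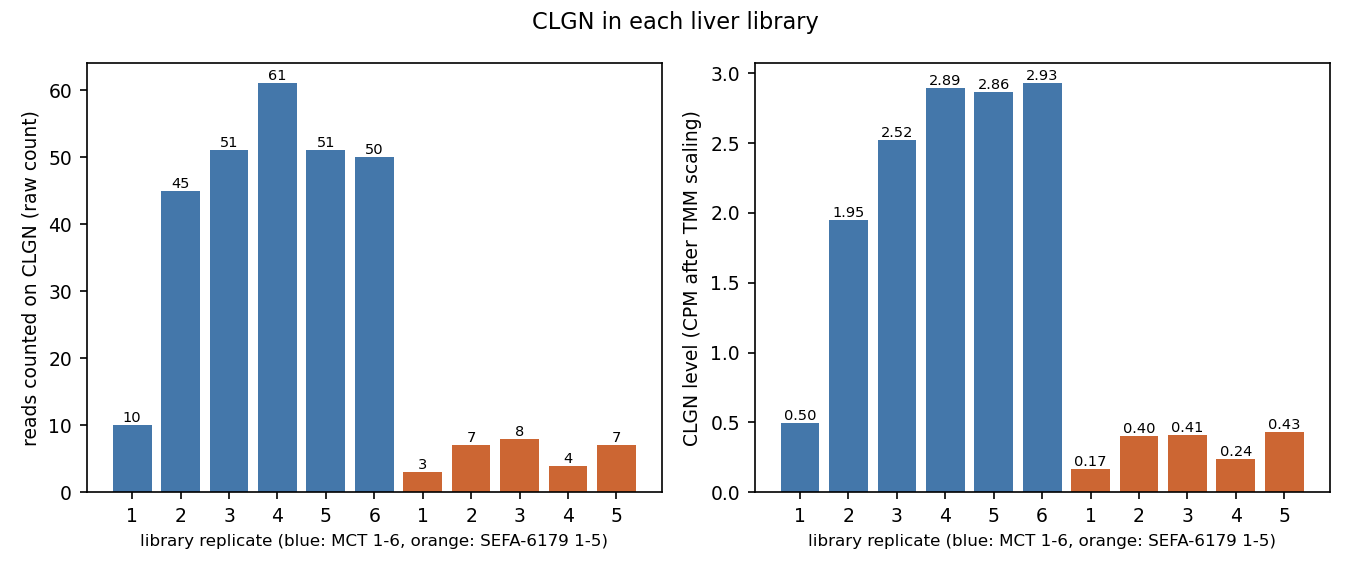
Reads counted on CLGN (left) and its level in CPM (right) in each library, one bar per library, with the value above the bar. The SEFA-6179 bars run from 3 to 8 reads, the MCT bars from 10 to 61, and MCT replicate 1 at 10 reads lies nearest to SEFA-6179.

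At such counts CLGN sat at the edge of what could be tested. The filter asked for 0.528 CPM before TMM correction in at least 5 libraries; 5 MCT libraries and 0 SEFA-6179 libraries reached it. CLGN therefore passed only through the group where it was higher. Its log2 fold change was -2.75 ± 0.48 (SE), and leaving out each library in turn on the same genes moved it only from -2.96 to -2.59. Its call held in 3 of those 11 fits, those without SEFA-6179 replicate 3, MCT replicate 1 or MCT replicate 6. In the authors' deposited table CLGN had a log2 fold change of -2.77 and an adjusted p of 2.09e-05.

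Set against its relative calnexin, CLGN was a trace transcript in both groups. The deposited FPKM values divide counts by gene length and by a library depth that was not the plain total count. For MCT replicate 3 the depth they imply was 20570000, against a total of 16598154 counts. FPKM allows levels of different genes to be compared as far as the listed gene lengths hold. By FPKM, CLGN stood at between 0.0677% and 0.173% of CANX in the SEFA-6179 libraries. In the MCT libraries it stood at 0.149% in replicate 1 and between 0.541% and 1.23% in the others. On this ratio MCT replicate 1 fell inside the SEFA-6179 range.

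CANX (calnexin), the membrane-bound lectin chaperone, did not follow CLGN. Its level was 293, 272, 372, 327 and 351 CPM in SEFA-6179 replicates 1 to 5, against a lowest of 271, a median of 343 and a highest of 419 CPM with MCT. The groups overlapped throughout, with a log2 fold change of -0.09 ± 0.16 (SE; edgeR adjusted p = 0.891). CANX (ENSSSCG00000014020) lies on chromosome 2 from 78879031 to 78915816.

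CALR (calreticulin), the soluble counterpart of calnexin, was at 403, 368, 860, 474 and 335.5 CPM in SEFA-6179 replicates 1 to 5. MCT libraries ran from 393 to 622 CPM with a median of 538.5 CPM. Replicate 3 exceeded every MCT library, while replicates 2 and 5 lay below all of them. The log2 fold change was -0.11 ± 0.24 (SE; edgeR adjusted p = 0.901) with all libraries and -0.42 (adjusted p = 0.413) without SEFA-6179 replicate 3. CALR (ENSSSCG00000013746) lies on chromosome 2 from 66098225 to 66102340.

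Of the 12 genes listed for the calnexin cycle, all tested, 1 was called lower (CLGN) and 0 higher by edgeR. Without CLGN there were 0 called, and CLGN was also the only member at an unadjusted p below 0.05. Over all tested genes 1471 of 13671 had such a p by edgeR, the share to set beside all such counts here. The list had a median log2 fold change of -0.10, with 8 of 12 genes below 0, beside a median of -0.0015 over all tested genes. Without SEFA-6179 replicate 3 the list's median was -0.16, with 10 of 12 below 0. In that fit 4 of the 12 had an unadjusted p below 0.05, beside 1513 of 13829 tested genes. CLGN, chosen by this contrast, was among those 4 and among the 10 below 0. PDIA3, the thiol isomerase that works with calnexin and calreticulin, was at 516 ± 160 CPM (SD, n = 5) in the SEFA-6179 group and 587 ± 102 CPM (SD, n = 6) in the MCT group (edgeR adjusted p = 0.80). Without SEFA-6179 replicate 3 its log2 fold change went from -0.19 to -0.39 (edgeR adjusted p = 0.446). GANAB and PRKCSH, the subunits of the glucosidase that trims glycans for the cycle, had log2 fold changes of -0.08 ± 0.12 and -0.16 ± 0.15 (SE). PPIB, an ER cyclophilin, had one of -0.27 ± 0.20 (SE), or -0.47 without SEFA-6179 replicate 3. CALR3, another calreticulin gene of the testis, was at 0.809 to 4.62 CPM with SEFA-6179 and 0.594 to 7.19 CPM with MCT and had a log2 fold change of 0.0012 ± 0.62 (SE). That gene was named after its values were seen, as the other testis-type member of the list.

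HSPA5 (BiP), the ER member of the HSP70 family and the usual gauge of the unfolded protein response, was set apart by 1 library. It was at 374, 288, 960, 447 and 405 CPM in SEFA-6179 replicates 1 to 5, against 319 to 461.5 CPM (median 411) with MCT. SEFA-6179 replicate 3 had more than any other library, and replicate 2 less than any. The log2 fold change was 0.30 ± 0.27 (SE; edgeR adjusted p = 0.739). Without replicate 3 it turned to -0.09 ± 0.18 (adjusted p = 0.905), with 379 ± 67.3 CPM (SD, n = 4) for the other SEFA-6179 libraries. HSPA5 (ENSSSCG00000005601) lies on chromosome 1 from 265930045 to 265934904.

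HSP90B1 (GRP94), the ER member of the HSP90 family, repeated this shape. Its level was 471, 423.5, 1068, 524 and 544.5 CPM in SEFA-6179 replicates 1 to 5 and 435 to 643 CPM (median 548) with MCT. Only replicate 3 lay above the MCT range, and replicate 2 lay just below it. Its log2 fold change was 0.15 ± 0.23 (SE; edgeR adjusted p = 0.865) and turned to -0.16 without replicate 3. HSP90B1 (ENSSSCG00000000849), on chromosome 5 from 80511507 to 80531005, overlaps C12orf73 on the opposite strand over 9794 bases, a gene with a mean of 194 counts beside 10900 for HSP90B1.

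PDIA4, a disulfide isomerase of the same chaperone complexes, was at 398, 357, 827, 468 and 445 CPM in SEFA-6179 replicates 1 to 5. MCT libraries lay between 371 and 694 CPM, with a median of 470.5 CPM. Again replicate 3 was the only SEFA-6179 library above all MCT libraries. The log2 fold change was -0.01 ± 0.23 (SE; edgeR adjusted p = 0.992) and fell to -0.27 without that library. PDIA4 (ENSSSCG00000015453) lies on chromosome 9 from 109252010 to 109280249.

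**Figure D2:**
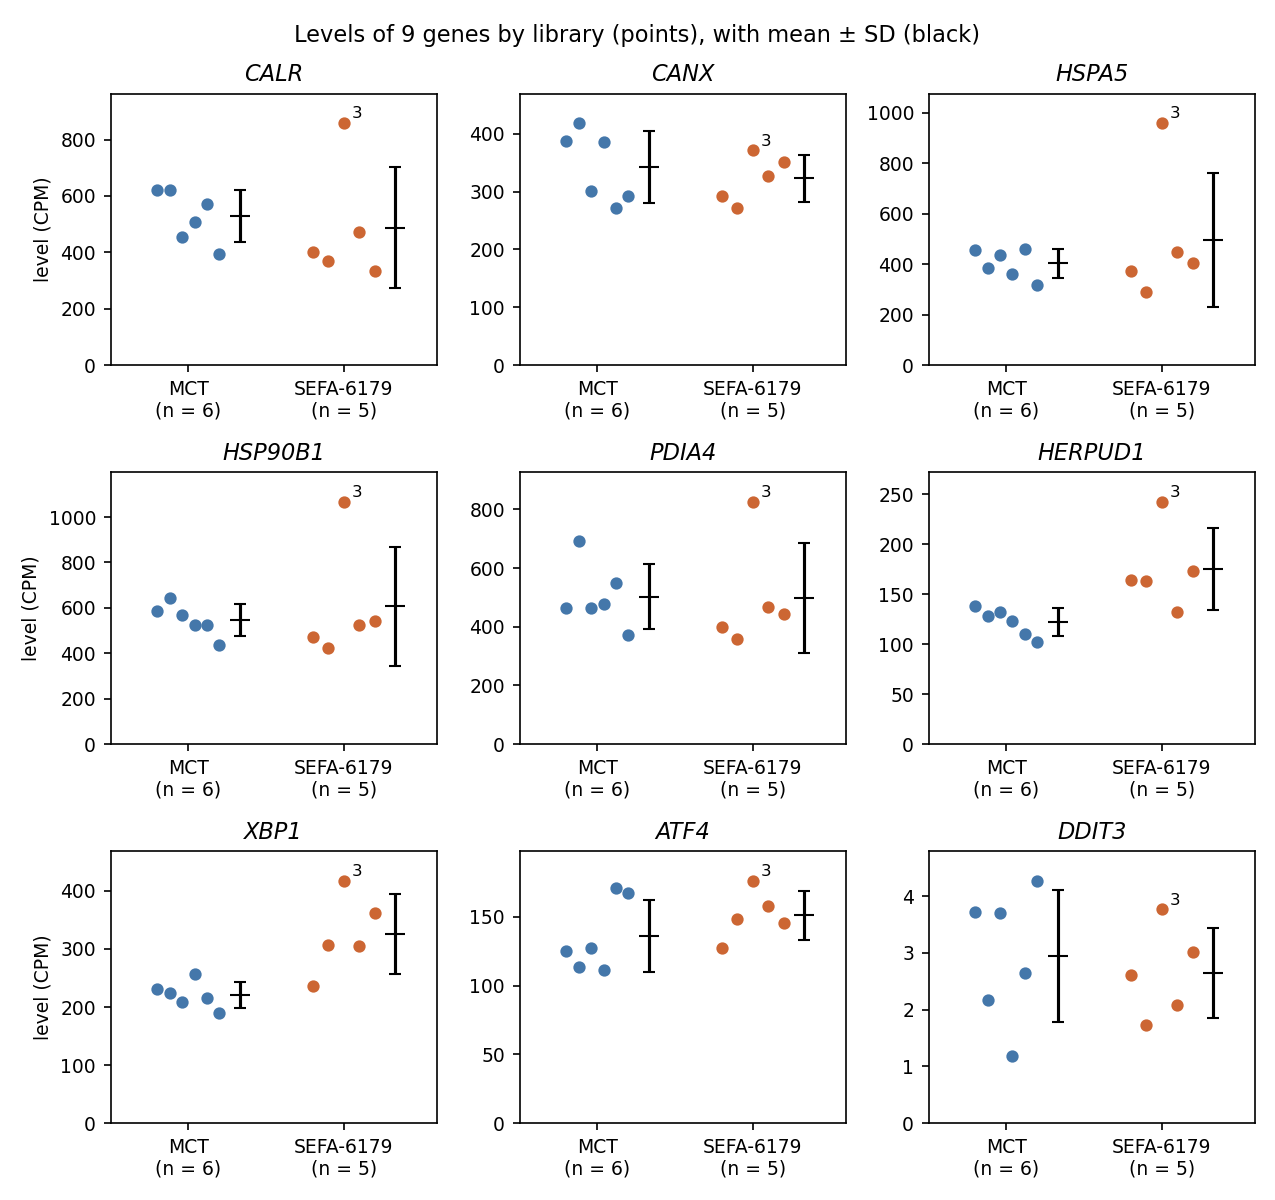
Level in CPM of 9 genes in each library (points; blue MCT, orange SEFA-6179), with the group mean ± SD in black and SEFA-6179 replicate 3 marked 3. That library is the highest of all 11 for CALR, HSPA5, HSP90B1, PDIA4, HERPUD1, XBP1 and ATF4, and the other 4 SEFA-6179 libraries reach above the MCT range only for XBP1 and HERPUD1.

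Among ER lumen chaperones and disulfide isomerases, 0 of 22 tested genes were called by edgeR, and 0 had an unadjusted p below 0.05. DESeq2 also called 0 of the 22. Their median log2 fold change was 0.18, with 18 genes above 0, and it moved to -0.05, with 8 above 0, without SEFA-6179 replicate 3. P4HB, the most abundant of the list and the founding protein disulfide isomerase, was at 1859 ± 329 CPM (SD, n = 5) in the SEFA-6179 group and 1547 ± 140 CPM (SD, n = 6) in the MCT group (edgeR adjusted p = 0.603). PDIA6, which attenuates signalling by IRE1, was at 228 ± 80.4 against 222 ± 23.2 CPM. DNAJC3, a BiP co-chaperone, was at 132.5 ± 45.5 against 132.5 ± 22.1 CPM. Both means held SEFA-6179 replicate 3, without which PDIA6 was at 193 ± 22.4 CPM (SD, n = 4) and DNAJC3 at 113 ± 17.9 CPM in the SEFA-6179 group, with log2 fold changes of -0.21 and -0.23. The lowest p of the list belonged to PDIA5, at 20.4 ± 5.23 against 25.5 ± 2.20 CPM (edgeR adjusted p = 0.483, and 0.130 without SEFA-6179 replicate 3).

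XBP1, the transcription factor of the IRE1 branch, was higher in most SEFA-6179 livers. Its level was 235.5, 307, 418, 305 and 362 CPM in SEFA-6179 replicates 1 to 5, against 190 to 257 CPM (median 220) with MCT. In 4 of 5 SEFA-6179 libraries it lay above every MCT library, and replicate 1 lay within the MCT range. The log2 fold change was 0.56 ± 0.16 (SE), and it did not pass by edgeR (adjusted p = 0.199; unadjusted p = 0.00383). DESeq2 gave an adjusted p of 0.0506, and the authors' deposited table one of 0.047, just past the threshold. Without SEFA-6179 replicate 3 the log2 fold change was 0.45 (edgeR adjusted p = 0.280), and over the 11 fits that each left out 1 library it stayed between 0.45 and 0.65. XBP1 (ENSSSCG00000030996) lies on chromosome 14 from 46008377 to 46017036.

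HERPUD1, an ER membrane protein that helps assemble the degradation machinery, had a similar distribution. Its level was 164, 163, 242, 132 and 173 CPM in SEFA-6179 replicates 1 to 5 and 102 to 138 CPM (median 125) with MCT. The same number of SEFA-6179 libraries, 4 of 5, lay above all MCT libraries, but here replicate 4 was the one within the MCT range. The log2 fold change was 0.52 ± 0.16 (SE) and did not pass by edgeR (adjusted p = 0.232; unadjusted p = 0.00605) or in the authors' deposited table (adjusted p = 0.102). It was 0.37 without SEFA-6179 replicate 3. HERPUD1 (ENSSSCG00000040663), on chromosome 6 from 18844576 to 18913424, overlaps SLC12A3 on the same strand, which had a mean of 0.636 counts.

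ATF4, the transcription factor of the PERK branch, was at 127, 148.5, 176, 157.5 and 146 CPM in SEFA-6179 replicates 1 to 5. MCT libraries ran from 112 to 171 CPM with a median of 126.5 CPM. The SEFA-6179 libraries lay in the upper part of the MCT range, with 3 of 6 MCT libraries below all of them and 1 of 5 SEFA-6179 libraries, replicate 3, above all MCT libraries (log2 fold change 0.15 ± 0.16 SE, edgeR adjusted p = 0.778). ATF4 (ENSSSCG00000000084) lies on chromosome 5 from 8738880 to 8745225.

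DDIT3 (CHOP), the factor that ATF4 raises under lasting stress, was scarce in every library. It had 46, 30, 73, 35 and 49 reads in SEFA-6179 replicates 1 to 5 and 25 to 75 reads in MCT libraries, or 2.64 ± 0.80 CPM (SD, n = 5) against 2.95 ± 1.16 CPM (SD, n = 6). Both groups spanned nearly the same range, and the log2 fold change was -0.15 ± 0.34 (SE; edgeR adjusted p = 0.903). The deposited table holds DDIT3 (ENSSSCG00000044553) on chromosome 5 from 22785441 to 22791134. A further identifier, unnamed in that table and DDIT3 in the reference list of symbols, overlaps it on the same strand over 4389 bases with a mean of 6.45 counts, so reads may have been split, and MARS1 overlaps its end on the opposite strand.

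**Figure D3:**
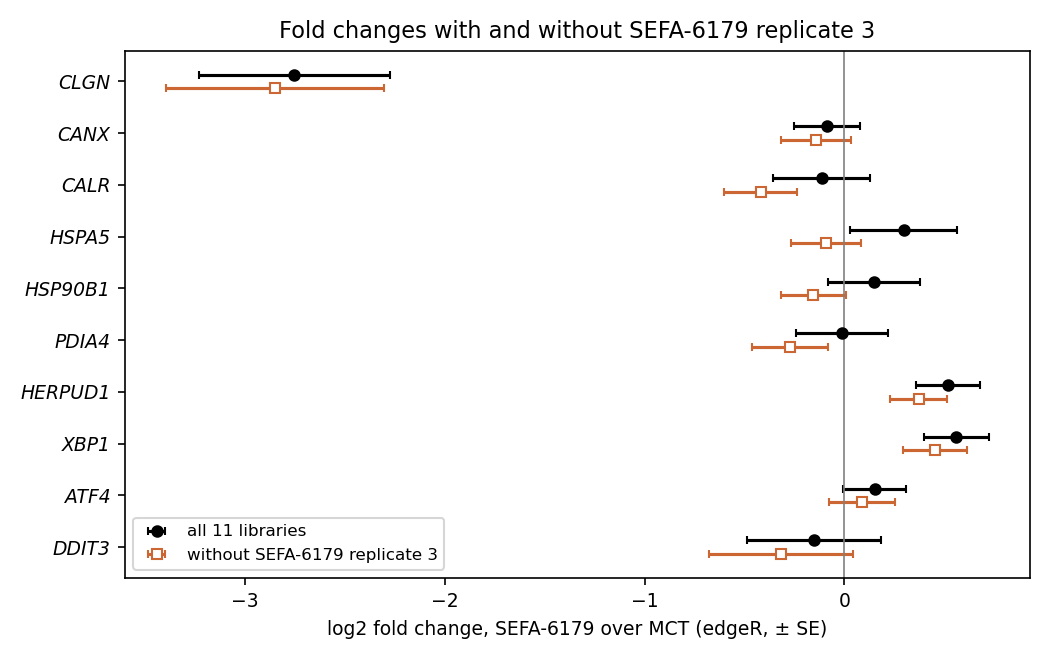
Log2 fold change of SEFA-6179 over MCT for the 10 genes (edgeR, ± SE), with all 11 libraries (filled) and without SEFA-6179 replicate 3 (open). HSPA5 goes from 0.30 to -0.09 and HSP90B1 from 0.15 to -0.16, while XBP1 stays at 0.45 and HERPUD1 at 0.37 without that library.

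The other genes of the response did not pass either. Of 13 tested sensors and processing factors, 0 were called by edgeR and 0 by DESeq2, with 2 at an unadjusted p below 0.05 and a median log2 fold change of 0.01. ATF6B, a homologue of the sensor ATF6, was at 32.1 ± 3.11 CPM (SD, n = 5) in the SEFA-6179 group and 41.3 ± 3.37 CPM (SD, n = 6) in the MCT group. Every SEFA-6179 library lay below every MCT library for it, as for 0.819% of all tested genes. Its log2 fold change of -0.36 ± 0.12 (SE) had an edgeR adjusted p of 0.249. ATF6 itself was at 60.0 ± 13.5 against 61.4 ± 8.35 CPM. CREB3L3, a liver factor activated by the same cleavage as ATF6, was at 428 ± 99.95 against 375 ± 80.0 CPM, and MBTPS1, the protease of that cleavage, at 111 ± 15.1 against 108 ± 14.8 CPM. IRE1 (ERN1) was not matched by name and is not analysed here.

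Of 21 tested targets of ATF4 and CHOP, 0 were called by edgeR and 1, SHMT2, by DESeq2. By edgeR 4 of the 21 had an unadjusted p below 0.05, beside 1471 of 13671 tested genes. The median log2 fold change of the 21 was -0.06, with 9 genes above 0 and 12 below. Without MCT replicate 5 it turned to 0.13, with 13 above and 8 below. SHMT2, the mitochondrial serine hydroxymethyltransferase, had the lowest p, at 91.6 ± 20.9 CPM (SD, n = 5) against 53.6 ± 11.5 CPM (SD, n = 6) and an edgeR adjusted p of 0.123. In the authors' deposited table its adjusted p was 0.0163. CTH, which makes cysteine, was at 328 ± 122 against 195 ± 101 CPM, and the transcription factor CEBPB at 292.5 ± 120 against 193 ± 23.8 CPM (edgeR adjusted p = 0.441 and 0.408). NUPR1, a small stress-induced chromatin protein, was at 162 ± 80.9 against 317 ± 294 CPM, the latter with 905 CPM in MCT replicate 5 and a mean of 199 ± 67.1 CPM (SD, n = 5) without it.

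Of 21 tested genes of ER-associated degradation, 0 were called by edgeR, with 2 at an unadjusted p below 0.05, and 0 by DESeq2, while 18 had a log2 fold change above 0 (median 0.16). Without SEFA-6179 replicate 3 there were 14 above 0, with a median of 0.10. DERL2, a channel component of that pathway, was at 71.1 ± 9.56 against 54.3 ± 6.67 CPM, with an edgeR adjusted p of 0.296. The lectin OS9 was at 223 ± 24.3 against 185 ± 29.5 CPM and the segregase VCP at 218 ± 28.4 against 214 ± 28.2 CPM. Of 26 tested genes of ER translocation and vesicle export, 0 were called by either tool, with 5 at an unadjusted p below 0.05 and a median of 0.11, or 0 and 0.06 without SEFA-6179 replicate 3. SEC61G, a small subunit of the translocation channel, had the lowest p of these, at 49.8 ± 22.2 against 27.4 ± 10.9 CPM (edgeR adjusted p = 0.325), and the channel's main subunit SEC61A1 was at 244 ± 51.6 against 256 ± 36.8 CPM. SSR2 and SSR4, of the translocon-associated complex, were at 341 ± 38.8 against 391 ± 76.5 CPM and 238 ± 74.0 against 214 ± 67.0 CPM. Counting each gene of these 6 lists once, 1 of 115 (0.870%) was called, beside 0.219% of all tested genes. That gene was CLGN, which is in the share by choice. Without the 10 genes described above, 0 of 105 were called by edgeR and 1, SHMT2, by DESeq2. Of these 105 genes 62.9% had a log2 fold change above 0, beside 49.8% of all tested genes and 61.0% of those with a mean of at least 100 CPM. Without SEFA-6179 replicate 3 the number above 0 went from 66 to 54.

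SEFA-6179 replicate 3 was the highest of the 11 libraries for 7 of the 10 genes, where it was the highest for 9.27% of all tested genes and for 10.1% of those with a mean of at least 100 CPM. This library was singled out after its values were seen. It exceeded the mean of the other 10 libraries 2.44-fold for HSPA5, 2.04-fold for HSP90B1, 1.81-fold for CALR, 1.78-fold for HERPUD1, 1.76-fold for PDIA4 and 1.65-fold for XBP1. For ATF4 the ratio was 1.26, for CANX 1.13, and for CLGN 0.278, as for the other SEFA-6179 libraries. Among listed genes outside the 10 it was the highest library for 40 of 105.

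Within that library the lists differed. The median ratio to the other 10 libraries was 1.71 for ER lumen chaperones and isomerases, where it was highest for 14 of 22 genes, 1.17 for degradation genes (10 of 21) and 1.23 for translocation genes (12 of 26). For sensors it was 1.02 (3 of 13) and for ATF4 and CHOP targets 1.00 (3 of 21), beside 0.972 over all tested genes. The high ratios were not particular to ER genes: for cytosolic heat shock genes the median was 1.81 (3 of 10). CRELD2, an ER-resident protein raised by ATF6, was at 169 CPM there and at 32.3 to 52.9 CPM in the other libraries. MANF, a secreted BiP partner, was at 207 CPM against 44.5 to 82.8 CPM, and HYOU1, the exchange factor of BiP, at 218 CPM against 49.7 to 86.6 CPM. By contrast, EIF2AK3, which encodes PERK, was at 12.7 CPM against 9.78 to 14.9 CPM, and TRIB3, an ATF4 target, at 9.61 CPM against 2.60 to 14.9 CPM. These 5 genes were chosen after their values were seen.

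**Figure D4:**
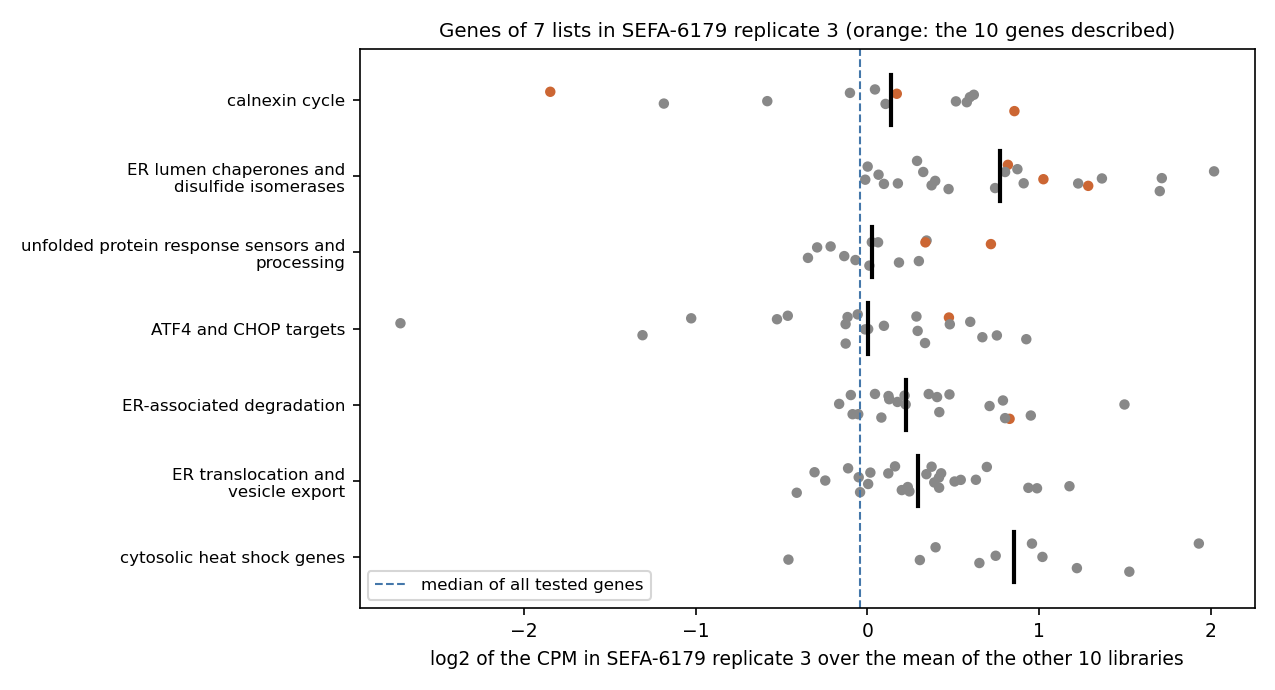
Log2 ratio of the CPM in SEFA-6179 replicate 3 to the mean of the other 10 libraries, one point per tested gene in 7 lists (orange, the 10 genes described; black bar, list median; dashed line, median of all tested genes). ER lumen chaperones (median ratio 1.71) and cytosolic heat shock genes (1.81) lie to the right of the dashed line, and ATF4 and CHOP targets (1.00) lie around it.

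Other measures also set SEFA-6179 replicate 3 apart, and their part in its ER gene levels was not tested. Its ALB level was 42120 CPM, against 86440 to 126400 CPM in the other SEFA-6179 libraries; MCT replicate 3 had less, 33180 CPM, with HSPA5 at 438 CPM. The 5 tested macrophage markers summed to 723 CPM, the most of any library, against 27.6 to 469.7 CPM elsewhere. B and plasma cell markers, of a cell type rich in ER chaperones, summed to 14.9 CPM there, within the 8.46 to 30.7 CPM of the other libraries. Of the latter list, 4 of 7 genes were tested. Their median ratio to the other 10 libraries was 1.06, and SEFA-6179 replicate 3 was the highest library for 1 of the 4. POU2AF1, the most abundant gene of that list, had a ratio of 0.187, where the mean of the others held 21.7 CPM in MCT replicate 5. The total count of SEFA-6179 replicate 3, 19215097, was within the range of the other libraries. The heat shock list, of cytosolic genes and the mitochondrial HSPD1 and HSPE1, which answer to a different regulator, summed to 3224 CPM in it and to 3432 CPM in MCT replicate 5, where the lowest library had 1280 CPM. MCT replicate 5 was the highest library for 17.7% of all tested genes and the lowest for 17.3%. It had HSPA8 at 1098 CPM and HSP90AA1 at 936 CPM, each above all other MCT libraries. HSP90B1 at 525.5 CPM and PDIA4 at 550.5 CPM were inside the MCT range there.

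By group, 0 of 10 tested genes of that list were called by edgeR, with 3 at an unadjusted p below 0.05, and 0 by DESeq2. Its median log2 fold change was -0.02 with all libraries, -0.33 leaving out SEFA-6179 replicate 3 and 0.32 leaving out MCT replicate 5. HSPD1, the mitochondrial chaperonin, was at 376 ± 37.3 CPM (SD, n = 5) in the SEFA-6179 group and 297.5 ± 21.4 CPM (SD, n = 6) in the MCT group (edgeR adjusted p = 0.360), with every SEFA-6179 library above every MCT library, as for 0.673% of all tested genes. Its partner HSPE1 was at 176 ± 47.3 against 107 ± 39.3 CPM (edgeR adjusted p = 0.291).

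Between animals of the same group, the lumenal chaperones varied together. After subtracting each group's mean from log2 CPM, 9 relations of HSPA5 with the other genes were computed over the 11 libraries, each with a two-sided permutation test of 100000 resamples and Benjamini-Hochberg adjustment over the 9. For HSP90B1, Pearson's r was 0.933 (permutation p = 0.00031, adjusted p = 0.00279) and Spearman's rho 0.836 (permutation p = 0.00201, adjusted p = 0.0173). For CALR, r was 0.870 (permutation p = 0.00172, adjusted p = 0.00636) and rho 0.782 (permutation p = 0.00609, adjusted p = 0.0183). For PDIA4, r was 0.832 (permutation p = 0.00212, adjusted p = 0.00636) and rho 0.809 (permutation p = 0.00384, adjusted p = 0.0173). Without SEFA-6179 replicates 3 and 2, the 2 libraries farthest from the median, r was 0.653 for HSP90B1, 0.647 for CALR and 0.460 for PDIA4 (adjusted permutation p = 0.288, 0.288 and 0.647). Spearman's rho was then 0.700, 0.667 and 0.650 (permutation p = 0.043, 0.0576 and 0.0666, adjusted p = 0.200 for each). Passing the threshold thus rested on those 2 libraries, while the coefficients stayed positive over the other 9.

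HERPUD1 and XBP1 followed less closely, with r of 0.696 (permutation p = 0.0274, adjusted p = 0.0616; rho 0.491, permutation p = 0.130) and 0.598 (permutation p = 0.0592, adjusted p = 0.106; rho 0.446, permutation p = 0.173). DDIT3 had an r of 0.428 (permutation p = 0.184; rho 0.273, p = 0.414), CANX of 0.387 (permutation p = 0.254; rho 0.327, p = 0.328) and ATF4 of 0.336 (permutation p = 0.327; rho 0.200, p = 0.561). CLGN had an r of -0.06 with HSPA5 (permutation p = 0.824; rho -0.14, p = 0.693). None of these 6 passed when adjusted over the 9.

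**Figure D5:**
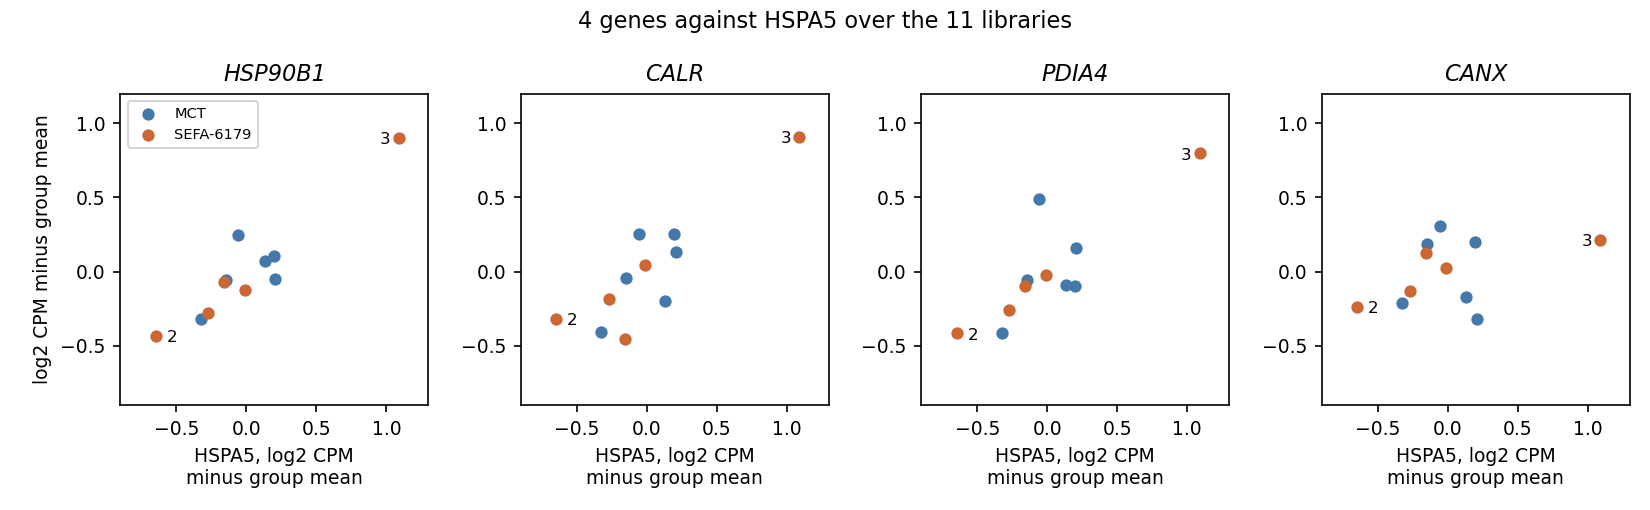
Log2 CPM minus the group mean of HSP90B1, CALR, PDIA4 and CANX against that of HSPA5, one point per library (blue MCT, orange SEFA-6179; 2 and 3 mark SEFA-6179 replicates). HSP90B1 (r = 0.933 over the 11 libraries, permutation p = 0.00031) follows HSPA5, with replicate 3 far at the upper right, and CANX (r = 0.387, permutation p = 0.254) stays level there.

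The genes whose within-group pattern was most like that of HSPA5 among 11153 named genes with a mean of at least 1 CPM were LENG9 (Pearson's r 0.972), HYOU1 (0.936), HSP90B1 (0.933), KCTD5 (0.932) and SRM (0.928). CALR ranked 23 and PDIA4 ranked 41 in this order, HERPUD1 262, XBP1 548 and CLGN 6373. For CLGN the most alike were ASB5 (0.936), FAM210B (0.925), ZNF649 (0.917), LMLN (0.905) and CMSS1 (0.905). Leaving out the libraries farthest from its median, replicate 1 of each group, these fell to between 0.219 and 0.647. The 10 genes named here were picked as the highest of many, over 11 libraries, so the values are descriptions only. Of the 5 genes most like CLGN within groups, none differed between the groups by edgeR (adjusted p from 0.401 to 0.972).

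Per listed gene length, the 10 genes covered a wide range of FPKM. With MCT, CALR was highest at 202 ± 36.5 FPKM (SD, n = 6), followed by HSPA5 at 157 ± 23.3, HSP90B1 at 154 ± 19.8 and PDIA4 at 144 ± 31.3 FPKM. CANX, at 74.2 ± 13.4 FPKM, was below PDIA4 in all 11 libraries of the study. XBP1 followed at 42.7 ± 4.47, ATF4 at 25.1 ± 4.93 and HERPUD1 at 19.99 ± 2.23 FPKM. DDIT3 at 1.37 ± 0.539 and CLGN at 0.573 ± 0.239 FPKM came last. With SEFA-6179, the order ran HSPA5 (192 ± 103 FPKM, SD, n = 5), CALR (186 ± 81.8), HSP90B1 (170 ± 73.5), PDIA4 (142 ± 53.7), CANX (69.8 ± 8.86), XBP1 (62.7 ± 13.1), HERPUD1 (28.6 ± 6.67), ATF4 (27.7 ± 3.26), DDIT3 (1.23 ± 0.373) and CLGN (0.0834 ± 0.0299). HSPA5 led there through replicate 3: without it CALR was at 151 ± 22.7, HSPA5 at 147 ± 26.3 and HSP90B1 at 137.5 ± 15.4 FPKM (SD, n = 4), and ATF4, at 26.6 ± 2.28 FPKM, exceeded HERPUD1, at 25.8 ± 2.94 FPKM.

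Several neighbours in this order changed places between libraries, and their differences were not tested. CALR exceeded HSPA5 in 9 of 11 libraries (6 of 6 MCT, 3 of 5 SEFA-6179). HSPA5 exceeded HSP90B1 in 8 (4 of 6 and 4 of 5), and HSP90B1 exceeded PDIA4 in 9 (4 of 6 and 5 of 5). The steps from PDIA4 to CANX, from XBP1 to ATF4 and from HERPUD1 to DDIT3 held in all 11 libraries. ATF4 was above HERPUD1 in 5 of 6 MCT libraries and in 2 of 5 SEFA-6179 libraries. Likewise CANX was above XBP1 in 6 of 6 MCT libraries and in 3 of 5 SEFA-6179 libraries. DDIT3 exceeded CLGN in 10 of 11 libraries, the exception being an MCT library.

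The summed markers of germ cells, where calmegin is best known, did not separate the groups as CLGN did. Of 7 such genes 4 were in the table, and they summed to 5.17 to 13 CPM with SEFA-6179 and 3.37 to 11.01 CPM with MCT, overlapping throughout. Of these 4 genes edgeR tested 2. SYCP3, their most abundant gene, was at 4.16 ± 1.504 CPM (SD, n = 5) in the SEFA-6179 group and 2.74 ± 1.09 CPM (SD, n = 6) in the MCT group, the opposite order to CLGN (edgeR adjusted p = 0.534). The other tested gene, CALR3, had a log2 fold change of 0.0012. By DESeq2, 2 of the 4 genes were above 0 and 2 below 0, the direction of CLGN. Cholangiocyte and stellate markers had log2 fold changes in the same direction as CLGN. Of the cholangiocyte markers, 6 of 6 tested genes were below 0, with a median of -1.13 and sums of 35.0 to 72.0 CPM with SEFA-6179 against 44.5 to 133 CPM with MCT. By edgeR 0 of the 6 were called, with 4 at an unadjusted p below 0.05, beside 1471 of 13671 tested genes. The smallest adjusted p was 0.0539, for CD24. Its SEFA-6179 libraries all lay below the MCT libraries, as for 0.819% of all tested genes. DESeq2 called 3 of the 6 lower: CD24, SOX9 and EPCAM. These genes were named after their values were seen. Of the stellate markers, 5 of 5 tested genes were below 0, with a median of -0.14, 0 called by either tool, 2 at an unadjusted p below 0.05 and a smallest adjusted p of 0.225. Cholangiocyte sums were 79.0, 123, 80.6, 70.85, 133 and 44.5 CPM in MCT replicates 1 to 6, with a median of 79.8 CPM. In SEFA-6179 replicates 1 to 5 they were 72.0, 38.7, 70.1, 35.0 and 35.9 CPM. The part of either cell type in the CLGN difference was not tested. SPP1 was the most abundant cholangiocyte marker, at 25.1 ± 13.6 against 35.3 ± 18.1 CPM.

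The summed markers of the other cell types overlapped between the groups, and 0 of them were called by edgeR or by DESeq2. Of the endothelial markers, 5 of 5 were above 0, with 3 at an unadjusted p below 0.05, and of the erythroid markers 3 of 4 were below 0, with 1 at such a p. Endothelial markers summed to 248 to 340 CPM with SEFA-6179 and 220 to 325 CPM with MCT, with KDR at 80.3 ± 15.3 against 66.5 ± 20.2 CPM. Stellate markers summed to 242 to 411.5 and 275.5 to 559 CPM, with COL1A1 at 102 ± 40.1 against 159 ± 51.9 CPM. Macrophage markers summed to 27.6 to 723 and 90.9 to 438 CPM, with CD163 at 193.5 ± 159 against 121 ± 78.7 CPM. T and NK cell markers summed to 6.19 to 21.1 and 6.97 to 19.1 CPM, and NKG7 was at 8.06 ± 4.15 against 6.95 ± 3.11 CPM. Erythroid markers summed to 224 to 493.5 and 106 to 417 CPM, and HBB was at 337 ± 103 against 201 ± 107.5 CPM.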

How the data were processed

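Liver RNA of 5 SEFA-6179 and 6 MCT piglets was sequenced. Per the file headers, the authors deposited raw read counts, FPKM values and size-factor normalized counts (a normalized signal) per gene and library, with their own log2 fold change, p-value and adjusted p-value. The authors' tools, per the submitters' processing notes, included featureCounts 1.5.0-p3 and HISAT2 2.0.5, and further DESeq2 1.20.0 and StringTie 1.3.3b, with no roles named. No source used here names the build or strand setting, so reads of overlapping genes cannot be told apart. Nothing says that libraries came from separate litters or extraction days, so p-values measure the spread between these samples.

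Raw counts as deposited entered edgeR 4.0.16 under R 4.3.3 (filterByExpr with a minimum count of 10, TMM, robust quasi-likelihood test, two-sided, Benjamini-Hochberg over 13671 genes, threshold 0.05). Standard errors are the log2 fold change over the root of F. The test was checked on simulated counts. Alternatives were DESeq2 size factors, no filter, a mean count of at least 50, DESeq2 1.42.0, limma 3.58.1 with library weights, a replicate block, each library left out, SEFA-6179 replicate 4 and MCT replicate 5 left out, and a covariate from EIF1AY, a gene on the Y chromosome. Chosen after seeing the data: leaving out each library on a fixed set of genes. Relations between genes used Python 3.11.15 and scipy 1.17.1 on log2 CPM (prior count 2).

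The genes and lists were chosen with earlier results of these data known. Named were the 10 genes, and per list the genes called or otherwise the 3 most abundant and the 1 with the lowest p, the most abundant marker per cell type, and the 5 genes most like CLGN and the 5 most like HSPA5 within groups. Others are marked where they appear. A gene that this rule names is not reported here. Symbols came from the table or, for 779 genes, from a reference list by identifier. Promoter and protein sequences were not analysed here.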

Additional observations from a re-analysis of the deposited data

Results flagged for a closer look

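Of 94 groups of 5 or 6 libraries covered by the genes named, 12 had 1 library lying well apart from all the others, where chance gives about 1 in 20, or 4.7. In the SEFA-6179 group the library was replicate 3 each time: CALR at 860 CPM (others at most 474), HSPA5 at 960 CPM (at most 447), HSP90B1 at 1068 CPM (at most 544.5), PDIA4 at 827 CPM (at most 468), PDIA6 at 367 CPM (at most 225) and PDIA5 at 29.6 CPM (at most 19.2). In the MCT group it was replicate 5 for NUPR1 at 905 CPM (at most 275), OS9 at 243 CPM (at most 188), HSPA8 at 1098 CPM (at most 634), HSP90AA1 at 936 CPM (at most 494) and POU2AF1, a B cell factor, at 21.7 CPM (at most 7.20). MCT replicate 6 stood apart for KDR, an endothelial receptor, at 107 CPM (at most 65.2). Genes of 1 pathway vary together, so these are not independent events. Over all tested genes MCT replicate 5 was the highest library for 17.7% and SEFA-6179 replicate 3 for 9.27%.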

How the results depend on the processing

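Over all genes, 30 were called. The count was 250 by DESeq2, 60 by limma-voom with library weights, 6 with the EIF1AY level as a covariate, 1 without SEFA-6179 replicate 4 and MCT replicate 5, and 0 to 53 when each library was left out, with 0 without SEFA-6179 replicate 5 (1184 genes at an unadjusted p below 0.05) or MCT replicate 4 (1258). DESeq2 size factors and a mean count of at least 50 kept it within 1.5 times, as did no filter, at 44. Of the 10 genes, 1 was called (CLGN), and 0 under a mean count of at least 50, where CLGN was not tested, limma-voom, the covariate and without SEFA-6179 replicate 4 and MCT replicate 5. Each library left out gave 0 to 1. The CLGN log2 fold change stayed between -2.96 and -2.57 in these fits, with adjusted p from 2.27e-05 by DESeq2 to 0.130. Few CLGN reads limit its call: without any 1 of MCT replicates 2 to 6 it fell below the filter. No pairing by replicate number was visible: deviations from the group means of same-numbered libraries correlated between -0.15 and 0.20, and 1 of 5 correlated best with its own number. Such correlations cannot show whether same-numbered animals were related. With a replicate block, 15 genes were called over all genes and 0 of the 10. The sign of small, uncalled differences turned: HSPA5 (-0.091 to 0.44) and HSP90B1 (-0.16 to 0.25) without SEFA-6179 replicate 3, PDIA4 with 6 libraries left out in turn (-0.27 to 0.10) and without SEFA-6179 replicate 4 and MCT replicate 5 (0.041), and DDIT3 by limma-voom (0.15) and with the replicate block (0.027). The cause was not tested. Relations with HSPA5 lost their call without its 2 farthest libraries and within the 6 MCT libraries: r was 0.647 and 0.616 for CALR, 0.653 and 0.576 for HSP90B1, and 0.460 and 0.358 for PDIA4. CANX turned to -0.032 and -0.096, and ATF4 to -0.026 within MCT. HERPUD1 passed without MCT replicate 5 (r = 0.753, adjusted permutation p = 0.047). Promoter motifs and protein ends were not run.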
